A study of Drosophila melanogaster with 20 samples.

Results

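The steroid ecdysone is made, activated, taken up and broken down by a small set of proteins, and 6 of their genes are described here with the binding sites of the ecdysone receptor EcR around them. They are nvd, spok and phtm (synthesis), shd (activation), Oatp74D (uptake) and Cyp18a1 (turnover), 6 of 13946 coding genes on the assembled chromosomes. A site or a peak was assigned to a gene when the site's midpoint or the peak's summit lay in the gene's span or within 5000 bp of it on dm6. That gave 11 of the 3463 sites in the authors' tables and 38 summits over 6 peak lists, and every one of those summits lay in one of the 11 sites. Of the 6 genes, 5 had at least 1 site, where 21.7% of coding genes did, and nvd had none. That share is not matched for span length, and 3 of the sites lay in the windows of both phtm and Cyp18a1. The genes were also chosen with earlier results known, so no test was made.

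Ecdysone is made from dietary sterol in the prothoracic gland by an oxygenase, Neverland (nvd), and a series of cytochrome P450 enzymes that includes Spookier (spok) and Phantom (phtm). Peripheral tissues import it through the transporter Oatp74D, convert it with the P450 Shade (shd) to 20-hydroxyecdysone, the ligand of EcR, and inactivate that hormone with the P450 Cyp18a1. Wing discs, leg discs and salivary glands are targets of the hormone and are not known to make it.

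Wings, legs and salivary glands came from wandering female larvae at 6 h before the puparium forms, a stage at which wing and leg are imaginal discs. All anti-Flag samples had the genotype w; EcR-GFSTF / Df(2R)BSC313, a tagged EcR allele over a deficiency of the same chromosome arm, and their labels list a rabbit IgG antibody beside anti-Flag M2. No untagged genotype enters the comparisons between tissues. CUT&RUN, in which an antibody brings a nuclease to the tagged protein and the cut DNA is sequenced, was run on 2 replicates per tissue for the released supernatant fraction and for the pellet fraction, 12 libraries in all. At least 90 wings or legs or 50 glands were dissected, so each library pools many animals, and the labels do not say whether replicates were separate dissections. Another 8 libraries with IgG (6 from wings of the genotype + / +; + / + ; + / + and 2 from glands of the tagged genotype) were not analysed here. By their peak names all 6 lists, gland included, were called against merged IgG libraries of wing. The files hold merged or modelled values only, so the depth and the level of single libraries are unknown, and the p-values reflect only how far these libraries vary, possibly for technical reasons.

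At the genes together, the EcR sites that passed the test were higher in discs than in glands, with 1 exception in spok. Of those called higher in wing, both shd sites, those 168 bp below and inside phtm and that 2694 bp above Cyp18a1 had peaks in disc lists alone. Where a site is known only from disc peaks, a higher value in discs is no separate evidence. Between wing and gland, 7 of the 11 sites were higher in wing in the authors' deposited table at an adjusted p (DESeq2) under 0.05, against 28.7% of all tested sites, and 1 was higher in gland, against 26.4%; in either direction 55.1% of all tested sites were called. Between leg and gland, 6 of 11 were higher in leg (29.6% of all tested sites) and 0 in gland (22.7%) in the authors' deposited table, by DESeq2, beside 52.3% of all tested sites in either direction. In the authors' deposited table an unadjusted p under 0.05 was found at 8 of 11 sites for wing and gland, against 60.5% of all sites, and at 7 of 11 for leg and gland, against 59.1%. Both comparisons use the same gland libraries, so their likeness is no second piece of evidence. The sites called higher in wing lay around phtm and Cyp18a1, at shd and at Oatp74D. Several were neighbours, so the 11 sites are not independent cases. The median log2 fold change of the 11 sites was 1.55 for wing over gland and 1.34 for leg over gland, beside 0.46 and 0.63 for all sites in the authors' deposited table. Between wing and leg, 0 of 11 sites were called by the authors' deposited table (1.47% of all tested sites, 0.571% higher in wing and 0.902% higher in leg, by DESeq2), and 1 of 11 had an unadjusted p under 0.05 (12.7% of all sites). Normal p-values from the deposited fold changes and SEs also called 0.

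The deposited fold changes of all sites are not centred on 0: the median over chromosome arms was 0.42 for wing over gland, 0.63 for leg over gland and -0.19 for wing over leg. Relative to those medians, 5 of the 11 sites were higher in wing and 1 in gland, where all sites split into 572 and 1064. For leg and gland the 11 sites split into 3 and 1, and all sites into 419 and 1046. Centred calls rest on normal p-values and are approximate. Calls that end with this centring are named at their sites.

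**Figure D1:**
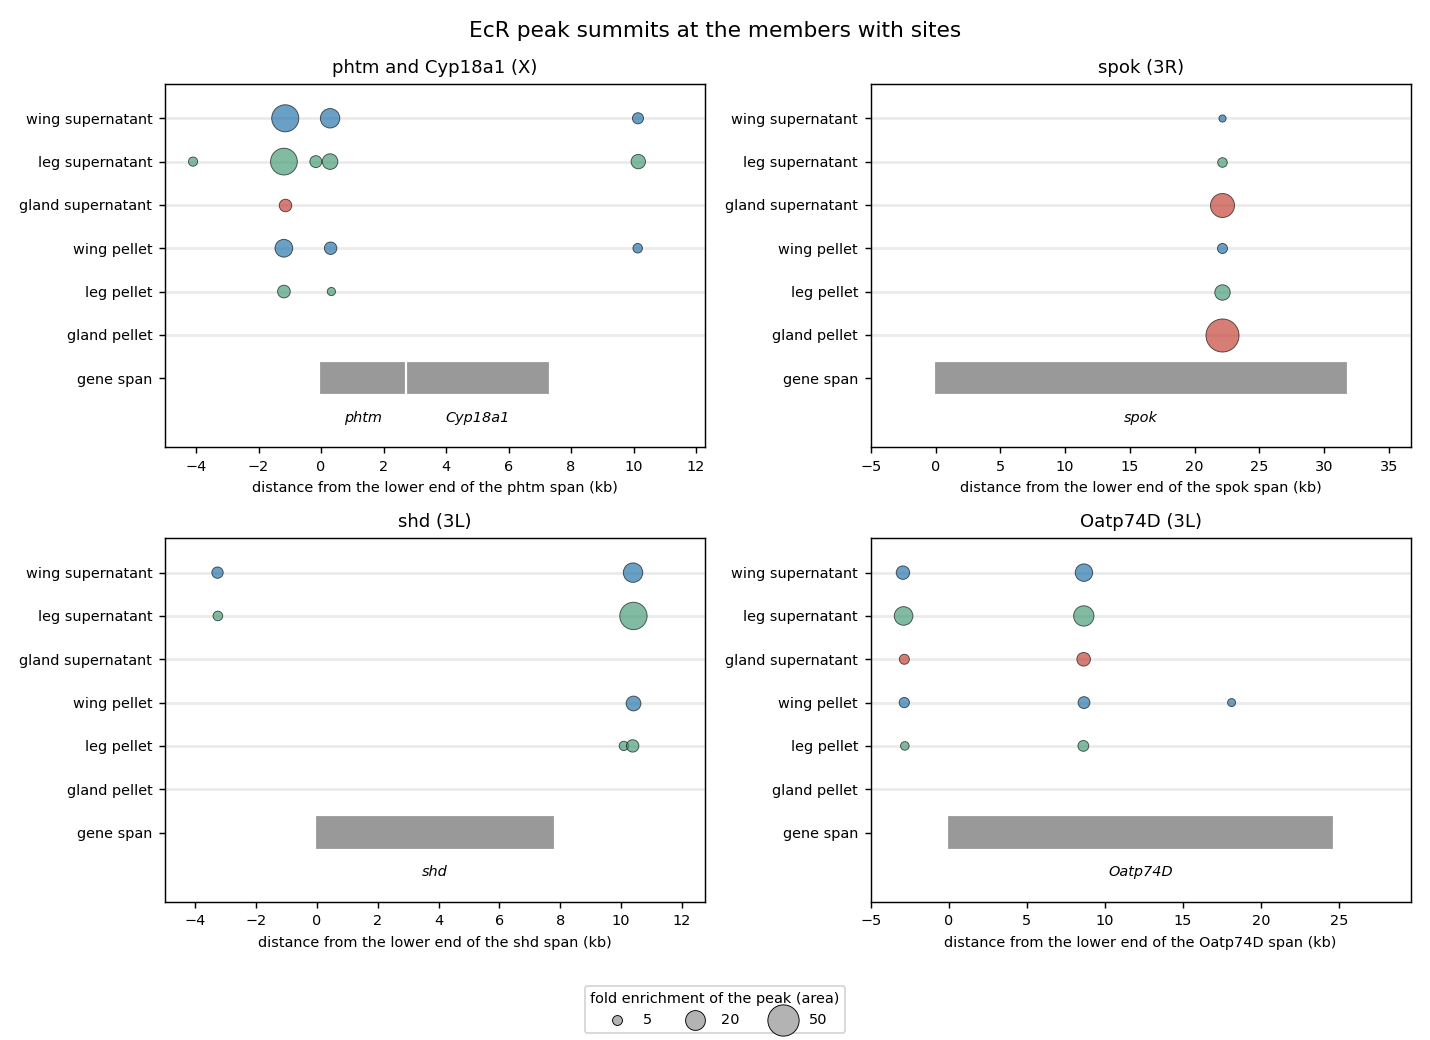
Summits of EcR peaks around the genes with sites, by distance in kb from the lower end of a gene span (grey bar), with 1 row per peak list and circle area proportional to the peak's fold enrichment in that list. Most large circles at phtm, shd and Oatp74D lie in wing and leg rows, 1 position in spok has a peak in all 6 lists, and the gland pellet row is empty outside spok.

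Summits were counted at the 6 genes and at all coding genes in the same way. In the wing and leg supernatant lists 5 of the 6 genes had a summit in their window, where 8.44% and 9.52% of coding genes did. In the gland supernatant list it was 4 of 6, without shd, against 11.4% of coding genes. The pellet lists gave 5 of 6 in wing (8.20%) and leg (5.21%), and 1 of 6, spok, in gland (9.83%). Since phtm and Cyp18a1 share peaks, these are not 6 independent cases, and the genes were chosen with earlier results known, so no test was made. Of the 11 sites, 8 had a peak in the wing supernatant list (40.4% of all sites), 10 in the leg supernatant list (44.4%) and 4 in the gland supernatant list (32.7%). In the pellet lists it was 8 in wing (44.0% of all sites), 6 in leg (28.2%) and 1 in gland (26.4%).

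Of the synthesis genes, nvd, which codes for the enzyme of the first step from cholesterol, had no site and no summit in its span of 76790 bp on 3L (24324866 to 24401655) or within 5000 bp. Its nearest site was 46516 bp below the span, at 24278312 to 24278389, with a mean normalised read count of 5.74 in the authors' deposited table. Above and below refer here to higher and lower coordinates, because the gene table used gives no strand. Within 1000000 bp of the nvd span there were 44 sites. That count does not show whether reads could be placed in the span itself, which was not tested.

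The spok site stood apart from all the others. spok, a P450 gene of the early steps of ecdysone synthesis, spans 3R from 3322810 to 3354486, in the heterochromatin near the centromere, with no other coding gene within 5000 bp. Its 1 site, from 3344837 to 3344947, lay inside the span and was 111 bp wide. It was the only one of the 11 sites with a peak in all 6 lists, and the best summits of the 6 lists lay within 14 bp of each other.

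The fold enrichment over background of the spok peak was 29.5 in the gland supernatant list (rank 27 of 1174) and 55.9 in the gland pellet list (rank 5 of 936). In the supernatant lists of the discs it was 2.63 in wing (rank 1416 of 1442) and 4.70 in leg (rank 1261 of 1596), among the lowest of those lists. The disc pellet lists gave 5.19 in wing (rank 548 of 1545) and 12.2 in leg (rank 57 of 1010). By -log10 q the same peak ranked high in the supernatant lists, with 68.0 in wing (rank 131), 201 in leg (rank 27) and 493 in gland (rank 2). In the wing and leg supernatant lists, then, a low fold over background went with a very low q-value at this position. Fold enrichment and q-value come from the authors' peak calls, and ranks hold within 1 list.

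In the authors' deposited table the spok site was lower in wing than gland, with a log2 fold change of -1.98 (SE 0.77, adjusted p = 0.0225), a level 3.94-fold higher in gland. For leg over gland the value was -1.43 (SE 0.83, adjusted p = 0.104 in the authors' deposited table), which did not pass, but did when centred (-2.07, adjusted p = 0.032). Wing over leg was -0.54 in the authors' deposited table, with a 95% interval from the deposited SE of -2.12 to 1.03. The mean normalised read count of the site was 565 in the authors' deposited table, the 6th highest of 3463 sites and 509 per 100 bp of site, where the other 10 sites had 3.85 to 17.5 per 100 bp. Such a mean usually went with a small error: for wing over gland the other 151 sites with a mean of 100 or more had a median SE of 0.31, and 1 of them had an SE as large as that of spok. The sources used here do not say how reads that map to several places in repeat-rich DNA were handled, and the part of such reads in these values was not tested.

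Other sites near spok mostly went the other way. Within 1000000 bp of it lay 11 further sites. By the authors' deposited table, before centring, 7 of them were higher in wing (28.7% of all tested sites) and 1 in gland (26.4%). Their log2 fold changes for wing over gland ran from -2.62 to 2.76, and the reason for their direction was not tested. The nearest, 12080 bp above the span and from 3366524 to 3366609, had 2.56 (SE 0.85, adjusted p = 0.0065 in the authors' deposited table).

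**Figure D2:**
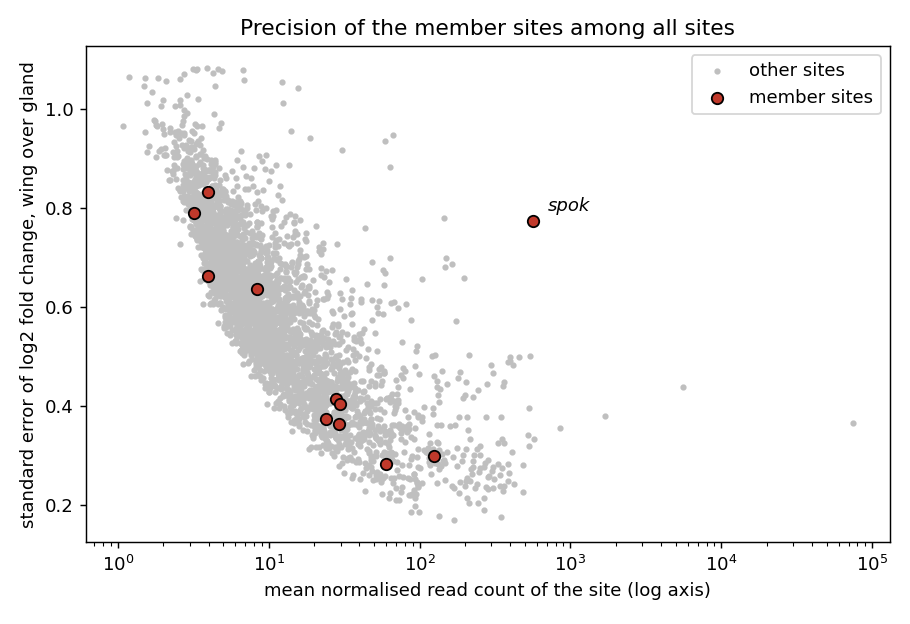
Standard error of the wing over gland log2 fold change against the mean normalised read count (log axis) for all 3463 sites, with the 11 sites at the ecdysone genes in red. The spok site, with a mean of 565 and an SE of 0.77, lies above sites of a like mean, and the other 10 lie within the main cloud.

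phtm, the P450 gene of a later step of synthesis, and Cyp18a1, the P450 gene of hormone inactivation, are next to each other on X. phtm spans 18685766 to 18688433 and Cyp18a1 18688538 to 18693042. Of 5 sites around the pair, 3 lay in the windows of both genes, 1 in that of phtm alone and 1 in that of Cyp18a1 alone, so sites at the phtm side cannot be given to 1 of the genes by position. No site lay inside the Cyp18a1 span.

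The strongest site of the pair, from 18684384 to 18685092, lay 1028 bp below phtm and 3800 bp below Cyp18a1, in no gene span. It was the widest of the 11 sites (709 bp, where the median of all sites was 148 bp) and had a mean normalised read count of 124 in the authors' deposited table. Its fold enrichment was 37.5 in the wing supernatant list (rank 50 of 1442), 36.7 in the leg supernatant list (rank 61 of 1596) and 8.04 in the gland supernatant list (rank 437 of 1174). The pellet lists gave 16.2 in wing (rank 79) and 8.24 in leg (rank 129), and the gland pellet list had no peak there. The summits of these 5 peaks lay within 49 bp of each other.

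That site was 4.14-fold higher in wing than gland by the authors' deposited table (log2 fold change 2.05, SE 0.30, adjusted p = 1.86e-10) and 3.62-fold higher in leg than gland (1.86, SE 0.32, adjusted p = 1.86e-07). Wing over leg was 0.19 in the authors' deposited table, with a 95% interval of -0.35 to 0.73.

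A further site, from 18685773 to 18686179, lay inside phtm, at its lower end, and 2562 bp below Cyp18a1. It showed a fold enrichment of 19.4 in the wing supernatant list (rank 162), 12.5 in the leg supernatant list (rank 354), 7.97 in the wing pellet list and 3.44 in the leg pellet list, with no gland peak. In the authors' deposited table it was higher in wing than gland (1.83, SE 0.40, adjusted p = 4.74e-05) and higher in leg than gland (1.12, SE 0.43, adjusted p = 0.0227), the leg call being lost when centred (adjusted p = 0.374). This was the site with an unadjusted p under 0.05 between wing and leg, with a log2 fold change of 0.71 and a 95% interval of 0.04 to 1.38 (p = 0.0389, adjusted p = 0.352 in the authors' deposited table), so a difference between the discs did not pass.

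The weaker sites on the phtm side were both leg peaks. The one from 18685558 to 18685639, 168 bp below phtm, showed a fold enrichment of 7.29 in the leg supernatant list and no other peak, and its mean normalised read count was 3.94 in the authors' deposited table. It was higher in both discs than in glands, by 2.36 in wing (SE 0.83, adjusted p = 0.0106) and 2.54 in leg (SE 0.85, adjusted p = 0.00868, or 0.0577 when centred) in the authors' deposited table. The one from 18681597 to 18681686, 4125 bp below phtm, showed a fold enrichment of 4.33 in the leg supernatant list, and none of its differences passed by the authors' deposited table (0.48 for wing over gland and 1.16 for leg over gland, adjusted p = 0.521 and 0.14). Although both had a peak in the leg supernatant list alone, a difference between wing and leg did not pass: the values for wing over leg were -0.18 and -0.68 in the authors' deposited table, with 95% intervals of -1.37 to 1.01 and -1.70 to 0.34.

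On the far side, 2694 bp above Cyp18a1, a site from 18695487 to 18695986 lay in no gene span. Its fold enrichment was 6.32 in the wing supernatant list, 10.6 in the leg supernatant list and 4.65 in the wing pellet list. In the authors' deposited table it was higher in leg than gland (1.41, SE 0.39, adjusted p = 0.00146) and, by less, in wing than gland (0.93, SE 0.37, adjusted p = 0.027). Neither call held when centred (adjusted p = 0.0936 for leg and 0.267 for wing). Of the 5 sites around the pair, 4 were thus higher in both discs than in glands as deposited.

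The window of 5000 bp left out a strong site on the phtm side. The next sites below phtm were at 8025 bp, from 18677642 to 18677840, with a mean normalised read count of 13.4, and at 9027 bp, from 18676239 to 18677239, with a mean of 176, in the authors' deposited table. The latter had 2.52 for wing over gland (SE 0.28) and 1.97 for leg over gland (SE 0.30) in the authors' deposited table. It had a peak in all 6 lists, with a fold enrichment of 30.6 in wing, 29.3 in leg and 5.17 in the gland supernatant list.

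shd, the P450 gene that turns ecdysone into its active form, spans 3L from 14614458 to 14622205 and had no site inside the span. Its stronger site, from 14624496 to 14625113, was 2599 bp above the span and inside the neighbouring gene CG9628. The mean normalised read count was 60.3 in the authors' deposited table. Its fold enrichment was 38.2 in the leg supernatant list (rank 57 of 1596) and 19.4 in the wing supernatant list (rank 161 of 1442). The pellet lists gave 11.2 in wing and, as a pair of peaks 292 bp apart at their summits, 4.43 and 7.87 in leg. Neither gland list had a peak there.

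The CG9628 site was 3.49-fold higher in wing than gland (log2 fold change 1.80, SE 0.28, adjusted p = 4.46e-09) and 3.80-fold higher in leg than gland (1.93, SE 0.30, adjusted p = 3.35e-09) in the authors' deposited table. Wing over leg was -0.12 in the authors' deposited table, with a 95% interval of -0.54 to 0.30, the narrowest of the 11 sites. The other site, 3275 bp below shd from 14611093 to 14611274 and in no gene span, showed a fold enrichment of 6.58 in the wing and 4.78 in the leg supernatant list. It was higher in wing than gland by the authors' deposited table (1.67, SE 0.64, adjusted p = 0.02, or 0.0933 when centred), and its value for leg over gland did not pass (1.34, SE 0.67, adjusted p = 0.0768).

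**Figure D3:**
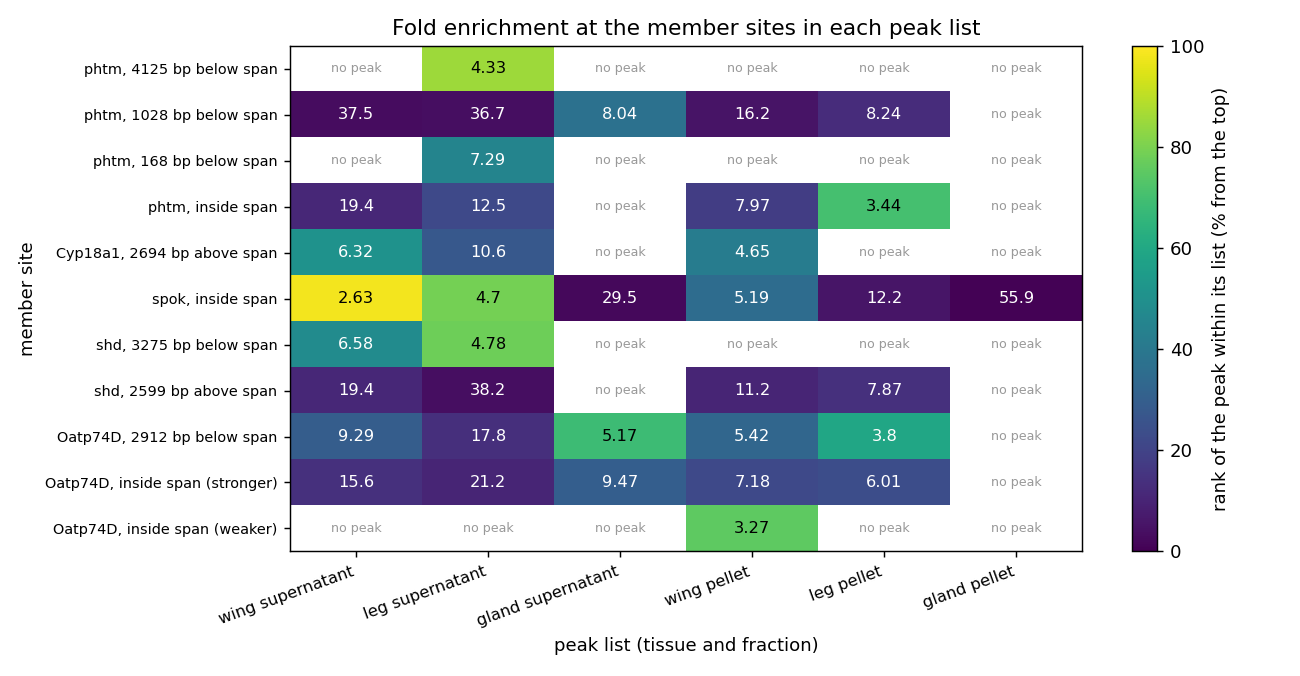
Fold enrichment (number in each cell) of the peak at each of the 11 sites in the 6 peak lists, coloured by its rank within the list in % from the top, with the strongest peak where a list has a pair. The phtm site at 1028 bp and the shd site at 2599 bp are dark in wing and leg lists. The spok site is dark in the gland lists and the leg pellet list and bright in the disc supernatant lists.

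Oatp74D, the importer through which ecdysone enters cells, spans 3L from 17487118 to 17511693 and had 3 sites. The first, from 17484090 to 17484323, was 2912 bp below the span and inside the neighbouring gene CG6333. It had peaks in 5 lists, with a fold enrichment of 9.29 in wing, 17.8 in leg and 5.17 in the gland supernatant list, and of 5.42 and 3.80 in the wing and leg pellet lists. It was higher in wing than gland (1.55, SE 0.36, adjusted p = 0.000123) and higher in leg than gland (1.93, SE 0.38, adjusted p = 5.06e-06) in the authors' deposited table.

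The second, from 17495692 to 17495899, was inside the Oatp74D span. It also had peaks in 5 lists, with a fold enrichment of 15.6 in wing, 21.2 in leg and 9.47 in the gland supernatant list, and of 7.18 and 6.01 in the wing and leg pellet lists. Its values were 0.17 for wing over gland, with a 95% interval of -0.64 to 0.98, and 0.35 for leg over gland, with one of -0.52 to 1.22, by the authors' deposited table (adjusted p = 0.731 and 0.501). Centred, they were -0.25 and -0.28, also without a call. Those intervals leave out the size seen at the first Oatp74D site, 1.55 and 1.93, while the interval of the first site for wing over gland, 0.84 to 2.27, overlapped that of the second. Sites with a like mean, 29.1 and 27.8 normalised reads in the authors' deposited table, thus gave a call at one and not at the other, and the difference between the sites was not tested. The third site, from 17505164 to 17505246 inside the span, had a single peak of 3.27 in the wing pellet list, a mean of 3.20 and no call (1.00 and 0.92 over gland in the authors' deposited table, adjusted p = 0.245 and 0.312).

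**Figure D4:**
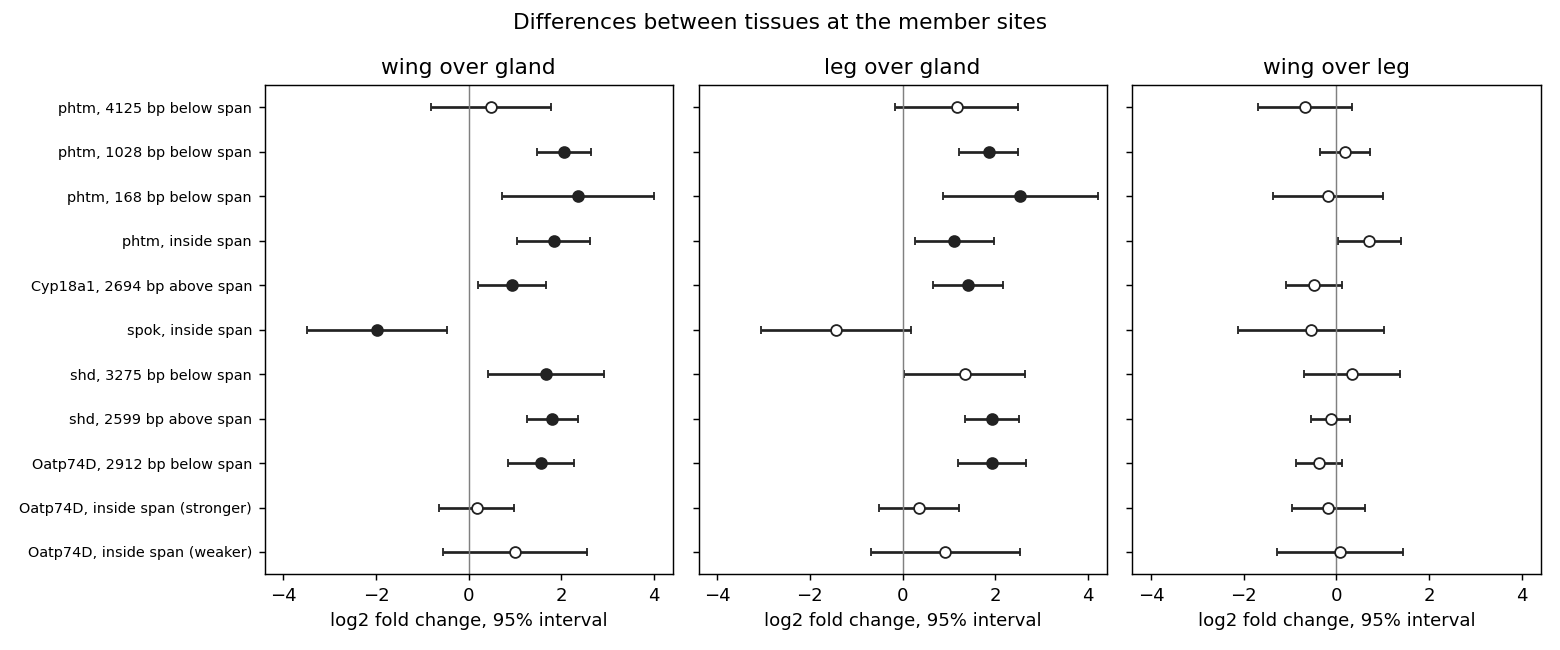
Log2 fold change between tissues with its 95% interval from the deposited SE at the 11 sites, filled where the adjusted p in the authors' deposited table was under 0.05. In both comparisons with the gland spok lies left of 0 and the other 10 sites lie right of it, before centring, and in wing over leg no point is filled.

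Between wing and leg the 11 sites ranged from -0.68 to 0.71 in the authors' deposited table. Intervals that span 0 do not show that the discs bind alike: at spok a difference of up to -2.12 in favour of the leg lay within the interval, and only at the CG9628 site, that 1028 bp below phtm and the first 2 of Oatp74D did the interval stay within 1 unit of 0 on the log2 scale.

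Of 15 other genes of ecdysone production, transport and control (dib, sad, sro, spidey, Cyp6t3, Cyp6u1, Npc1a, Start1, mld, ouib, Eo, Atet, E23, tor and Ptth), 3 had sites (21.7% of coding genes had one), 10 sites in all. The other Halloween genes dib, sad and sro, which code for enzymes of synthesis, had none, nor had Eo, which codes for ecdysone oxidase. For wing over gland 3 of the 10 sites were higher in wing (28.7% of all tested sites) and 4 in gland (26.4%) by the authors' deposited table. For leg over gland 1 was higher in leg (29.6% of all tested sites) and 4 in gland (22.7%) by the authors' deposited table. The share of genes with a site and the share of sites higher in wing were thus near those of all genes and sites. The share higher in leg lay below that of all sites and the shares higher in gland above, which was not tested. The 4 gland-side sites were all in the window of E23, an ecdysone-induced gene for an ABC transporter, which had 6 sites. They ranged in the authors' deposited table from -3.53 to -1.04 for wing over gland and from -3.56 to -1.72 for leg over gland. The site at -3.53, from 3356899 to 3357088, lay 2164 bp above the E23 span and 653 bp from CG8838. It had peaks in gland lists alone, so its higher value in glands is no separate evidence.

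Another E23 site, on 2L from 3345708 to 3346202, was higher in wing than gland by the authors' deposited table (0.72, SE 0.30, adjusted p = 0.0291, or 0.416 when centred). The site at 3339395 to 3339763 was the only one of these 10 that was called between wing and leg, against 1.47% of all tested sites (0.98, SE 0.24, adjusted p = 0.0093 in the authors' deposited table). mld, which codes for a zinc finger factor needed for ecdysone production, had a site on 3R from 24603236 to 24603937 that was higher in wing (2.06, SE 0.34, adjusted p = 3.64e-08) and in leg (1.20, SE 0.36, adjusted p = 0.00364, or 0.204 when centred) than gland in the authors' deposited table. Because that site had peaks in disc lists alone, its higher value in discs is no separate evidence. The other mld site, from 24596471 to 24596569, was not called. Start1, which codes for a lipid transfer protein, had a site 2754 bp above its span on 2R that was higher in wing than gland by the authors' deposited table (2.35, SE 0.84, adjusted p = 0.0145), and a site at 4689 bp, inside pio, that was not called. The nearest coding gene to the called Start1 site was CG4681, at 603 bp. That site was weak, with a mean normalised read count of 4.22 in the authors' deposited table. Its only peak was in the wing supernatant list, with a fold enrichment of 3.72 (rank 1319 of 1442). A higher value in wing is thus no separate evidence there.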

How the data were processed

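Peak lists hold merged replicates, trimmed reads without duplicates and fragments of 20 to 120 bp, per the deposited names. Tools listed in the submitters' processing notes, without roles or settings, are MACS2 2.1.2, DESeq2 (no version), R 3.5.2, bedtools 2.26, SAMtools 1.9, Picard 2.2.4 and Bowtie2 2.3.4.1, with the build dm6. The authors deposited, per peak, a fold enrichment (a linear ratio), q-values as −log10, a score and, as an other kind of value, the summit offset in bp. Each of the 3 deposited tables between tissues gives a read count normalised by the authors and averaged (a signal over libraries), a log2 fold change with its SE, a score (Wald statistic), a p-value and an adjusted p-value. Single-library counts are absent from the tables, and the count test first planned gave way to the deposited adjusted p (threshold 0.05). Each site has the same mean read count in the 3 comparisons, as a joint fit of the tissues would give. The sources used here do not say which libraries or fractions were fitted. Depth per library is unknown and precision is the deposited SE. Sites without an adjusted p (4, 4 and 136) were not counted as tested.

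Gene spans came from a RefSeq table on the same assembly, without strand or exons. Of 16 names planned for the wider list, phm is an older name of phtm and was not counted again, and torso has the symbol tor. Coordinates are 1-based. Intervals are 1.96 SE. Named were all sites of the 6 genes, and called or bound genes of the wider list. The genes and lists were chosen with earlier results of these data known. The alternatives changed the window, the placement, the threshold, the centring and the peak lists. The planned search for sequence motifs was not run and no sequence is given. Python 3.11.15, pandas 2.3.3 and scipy 1.17.1 were used.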

Additional observations from a re-analysis of the deposited data

How the results depend on the processing

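With spans alone the 11 sites became 4 and with 2000 bp each side 6, of which 2 and 4 were called for wing and gland (8 with 5000 bp) and 1 and 3 for leg and gland (6 with 5000 bp). In both of these smaller windows shd and Cyp18a1 had 0 sites. At an adjusted p under 0.01, 4 sites were called for wing and gland. Genes with a summit fell to 3 in the wing and leg supernatant and pellet lists, both for spans alone and with 2000 bp, and to 2 in the gland supernatant list for spans alone. With 10000 bp the gland pellet list rose to 2. A -log10 q of at least 10, equally long lists (936 peaks) and placement by overlap changed no number of genes.

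Centring on the median of the chromosome arms (0.42, 0.63 and -0.19) turned the split of all sites from 993 higher in wing and 914 in gland to 572 and 1064, and from 1024 in leg and 786 in gland to 419 and 1046. Centring the deposited score in place of the fold change, an alternative chosen after seeing the data, gave 570 and 1063, and 401 and 1040, with the same numbers of calls at the 11 sites. At the 11 sites centred fold changes left 5 higher in wing and 1 in gland, and 3 higher in leg and 1, spok, in gland (-2.07, adjusted p = 0.032). The calls lost were the shd site at 3275 bp (adjusted p = 0.0933) and the Cyp18a1 site at 2694 bp (0.267) for the wing, and the phtm sites at 168 bp (0.0577) and inside the span (0.374) and the Cyp18a1 site (0.0936) for the leg. The E23 site at 3345708 lost its wing call (0.416) and the mld site its leg call (0.204), while the latter passed for wing over leg (1.05, adjusted p = 0.0168). The Start1 site at 2754 bp passed for leg over gland with normal p-values and no centring (adjusted p = 0.0499). Signs changed with centring at sites without a call: the second Oatp74D site (-0.25 for wing over gland, -0.28 for leg over gland, 0.0153 for wing over leg), the E23 site at 3345708 (-0.25 for leg over gland) and, for wing over leg, the CG9628 site (0.0693), the phtm site at 168 bp (0.0108), the Start1 site at 4689 bp (0.0729) and the uncalled mld site (0.0255). Without the spok site, also an alternative chosen after seeing the data, 7 sites were called for wing and gland and 6 for leg and gland. For wing over leg, 0 sites were called in every alternative. No replicate could be left out, and no paired analysis was possible because the tables hold no values per library.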
